A study of Mus musculus with 48 samples.

Results

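Public clonotypes are antibody heavy chains that different animals hold in common. Here they were selected on their presence in the spleen tables: at least 2 mice of NOD-FMT, at least 2 of PBS-T and at least 2 of BCR control had to hold one. A clonotype was defined by its V gene, its J gene and the amino acids of its HCDR3, and it was counted after nucleotide sequences present in 3 or more mice had been taken out. By this rule 2390 of the 3154791 clonotypes of the 24 spleens were public. Since presence in all 3 groups chose them, the number of mice that hold each one is given as a description.

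The NOD-FMT group was 10 B6 mice that received fecal microbiota of NOD.B10.H2b mice by gavage, and the PBS-T group was 9 B6 mice that received PBS instead. Recipients were 5 weeks old, had been given ampicillin, vancomycin and metronidazole for 7 days, and were gavaged over 3 weeks. The fecal material was pooled from 30 male donors aged 20 weeks or more. The BCR control group, labelled NC1, was 5 untreated B6 mice whose age the labels do not give, so it differs from both other groups in antibiotics as well as in gavage. All mice were of the C57BL/6 strain. Heavy-chain libraries were made from the spleen and the lacrimal gland (LG) of every mouse. The spleen libraries held 71859 to 2032338 counts after the removal of shared sequences, where a count is 1 consensus sequence of reads with the same molecular identifier. The spleen of PBS-T mouse 6 was the shallowest, with 71859 of its 215159 deposited counts left, and that of NOD-FMT mouse 3 the deepest. Only antibody transcripts were sequenced, so the tissue labels cannot be checked against other genes.

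The heavy-chain variable region is built by joining a V, a D and a J segment, and the joint, called HCDR3, is the most variable stretch of the antibody and a main contact with antigen. Exonucleases trim the segment ends, and the enzyme TdT adds bases that no segment encodes. Short joints with few added bases can be assembled by many B cells independently, and the same amino acids can arise from different nucleotides. IGHV11-2 and IGHV12-3 are known for the B-1 cells of the mouse, which make natural IgM against phosphatidylcholine and were produced largely early in life, and IGHV7-1 is known for antibodies to phosphorylcholine.

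HCDR3 nucleotide forms of 7 public clonotypes are printed to show how a single amino acid sequence was written in different mice, as read from the deposited tables, 5′ to 3′. The form held by most spleens comes first for each clonotype, and capitals mark the bases at which a later form differs from it. Both IGHV7-1 clonotypes were held by every spleen in the same leading form, which had no untemplated base.
IGHV7-1/IGHJ1/ARDYYGSSYWYFDV, form in 24 spleens: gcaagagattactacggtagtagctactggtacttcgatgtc
IGHV7-1/IGHJ1/ARDYYGSSYWYFDV, form in 5 spleens: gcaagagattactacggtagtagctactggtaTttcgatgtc
IGHV7-1/IGHJ1/ARDNWDWYFDV, form in 24 spleens: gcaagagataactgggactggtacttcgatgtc
IGHV7-1/IGHJ1/ARDNWDWYFDV, form in 2 spleens: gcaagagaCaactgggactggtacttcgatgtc
The leading clonotypes of IGHV11-2 and IGHV12-3 likewise had a leading form that every holder shared.
IGHV11-2/IGHJ1/MRYSNYWYFDV, form in 23 spleens: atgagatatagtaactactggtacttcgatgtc
IGHV12-3/IGHJ1/AGDYDGYWYFDV, form in 17 spleens: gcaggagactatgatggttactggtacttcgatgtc
IGHV12-3/IGHJ1/AGDYDGYWYFDV, form in 1 spleen: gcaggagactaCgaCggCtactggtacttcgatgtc
A short joint of IGHV6-6 was written with different final bases of a codon, and its 2 leading forms were each held by 15 spleens.
IGHV6-6/IGHJ3/TTGFAY, form 1 in 15 spleens: accactgggtttgcttac
IGHV6-6/IGHJ3/TTGFAY, form 2 in 15 spleens: acAactgggtttgcttac
IGHV6-6/IGHJ3/TTGFAY, form 3 in 4 spleens: acGactgggtttgcttac
The clonotype with the most forms, of IGHV1-76, and a clonotype that recurred in the LG, of IGHV3-6, had no form common to all holders.
IGHV1-76/IGHJ2/ARRGDGYYFDY, form in 5 spleens: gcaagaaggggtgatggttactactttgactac
IGHV1-76/IGHJ2/ARRGDGYYFDY, form in 4 spleens: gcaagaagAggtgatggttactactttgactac
IGHV1-76/IGHJ2/ARRGDGYYFDY, form in 3 spleens: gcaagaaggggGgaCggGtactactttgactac
IGHV3-6/IGHJ2/ARGGDYFFDY, form in 6 spleens: gcaagagggggtgattacttctttgactac
IGHV3-6/IGHJ2/ARGGDYFFDY, form in 5 spleens: gcaagagggggGgattacttctttgactac
IGHV3-6/IGHJ2/ARGGDYFFDY, form in 3 spleens: gcaagaggAggGgaCtacttctttgactac

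Most public clonotypes were held by a minority of the spleens. The median was 9 of 24 spleens, 561 public clonotypes (23.5%) were in 12 or more, and 7 were in all 24. Each spleen held between 353 public clonotypes, in PBS-T mouse 6, and 1728, in NOD-FMT mouse 3. As a percent of the clonotypes of a spleen, NOD-FMT mouse 3 was lowest, at 0.291%. BCR control mouse 2 was highest, at 1.62%, and PBS-T mouse 6 had 1.53%. A further 5167 clonotypes were held by 6 or more spleens and missed the rule. Of these, 3772 fell short in the BCR control group, 1956 in the PBS-T group and 368 in the NOD-FMT group, where a clonotype can fall short in several groups. The BCR control group had the fewest mice. Just inside the rule stood 320 clonotypes held by 2 mice in each group, with a mean HCDR3 length of 8.72 ± 2.49 residues (SD) and 5.25 nucleotide forms on average. Just outside stood 1960 clonotypes held by 2, 2 and 1 mice, with 9.22 ± 2.65 residues (SD) and 4.17 forms. A spleen in which a clonotype had no count could have held it at up to 0.000148% to 0.00417% of counts, the share of 3 counts in the deepest and the shallowest spleen, by counting error alone.

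**Figure D1:**
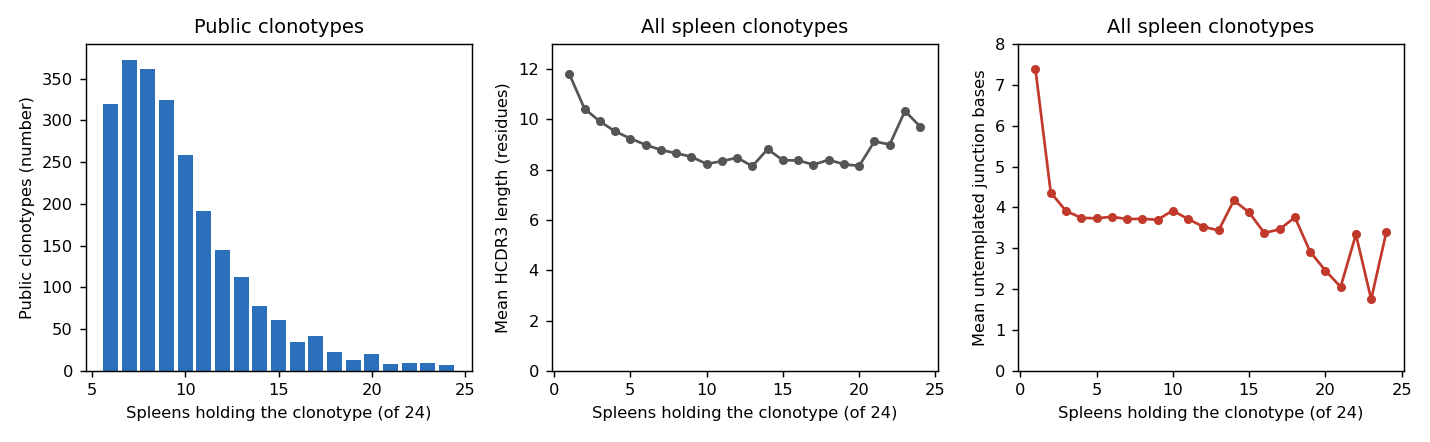
The left panel gives the number of public clonotypes by the number of the 24 spleens that held them, and the other panels give, for all spleen clonotypes, the mean HCDR3 length in residues and the mean number of untemplated junction bases by the same number. Clonotypes held by 1 spleen averaged 11.8 residues and 7.38 junction bases, and those held by 6 spleens averaged 8.99 residues and 3.77 bases. The few most widely held were longer again, with 10.3 residues for the 9 clonotypes held by 23 spleens and 9.71 for the 7 held by 24.

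Widely held clonotypes, the public ones among them, drew on a shifted set of V genes. IGHV6-3 was used by 251 of them (10.5%), against 2.00% of all spleen clonotypes, a ratio of 5.25. In the same direction followed IGHV2-9 (2.55% against 0.655%), IGHV6-6 (3.6% against 1.24%), IGHV10-1 (3.05% against 1.40%) and IGHV1-53 (7.24% against 3.73%). The 5167 clonotypes that were held by 6 or more spleens and missed the rule used these genes at 6.70% (IGHV6-3), 2.03% (IGHV2-9), 2.69% (IGHV6-6), 3.10% (IGHV10-1) and 7.14% (IGHV1-53), so they shared the shift and IGHV10-1 and IGHV1-53 were about as frequent in both sets. Each of these 5 genes made up more of the public than of the other clonotypes in every one of the 24 spleens. Because the same spleens chose the clonotypes, such counts of spleens are descriptions and carry no test. At the other end were IGHV1-59, with 0.126% against 1.32%, IGHV8-8, with 0.293% against 2.03%, IGHV1-39, with 0.293% against 1.35%, IGHV1-52, with 0.544% against 1.99%, and IGHV8-12, with 0.418% against 1.43%. The clonotypes of 6 or more spleens that missed the rule had low shares of these genes too, from 0.484% for IGHV1-59 to 1.32% for IGHV1-52. A list of 48 genes of the large IGHV1 family held 54.1% of public and 61.4% of all clonotypes, and a list of 33 genes of IGHV5 and IGHV2, families that lie near the D segments, held 12% and 13.3%. In all, 78 of 136 V genes were used by a public clonotype.

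The Igh locus lies on the minus strand of chromosome 12, and positions are those of GRCm38. IGHV6-3 spans chr12:114391712-114392169 and IGHV6-6 spans chr12:114434788-114435244, so both lie in the same stretch of the locus. These positions come from the GENCODE M21 annotation, in which 105 of the 140 V and J gene names of the tables were found. IGHV10-1 lies at chr12:114479005-114479451, IGHV2-9 at chr12:113879096-113879541 and IGHV1-53 at chr12:115158403-115158835. The depleted IGHV1-59 and IGHV8-8 lie at chr12:115335082-115335514 and chr12:115294062-115294504.

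**Figure D2:**
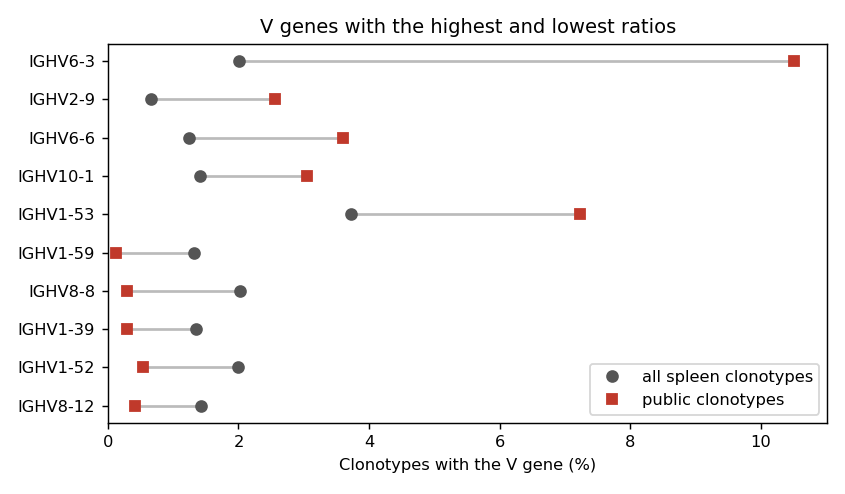
Percent of clonotypes with each V gene among public clonotypes (squares) and among all spleen clonotypes (circles), for the 5 highest and 5 lowest ratios among genes with at least 1% in either set. IGHV6-3 shows the widest gap, 10.5% against 2.00%.

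IGHJ2 was used by 42.8% of public and 33.6% of all clonotypes, and its share was higher among public clonotypes in 24 of 24 spleens. IGHJ3 was used by 25.4% and 24.1%, and was higher in 21 spleens. IGHJ4 was used by 20.1% and 26.9%, and was lower in all 24. IGHJ1 was used by 11.6% and 15.3%, and was lower in 22. In the other clonotypes held by 6 or more spleens the shares were 40.5% for IGHJ2, 23.998% for IGHJ3, 22.5% for IGHJ4 and 12.9% for IGHJ1, between the other values except for IGHJ3, which was below both. Public clonotypes with IGHJ1 had a mean HCDR3 length of 11.3 residues, and those with IGHJ2 had 7.63. The most common pairs were IGHV1-26/IGHJ2 with 128 public clonotypes and IGHV6-3/IGHJ2 with 127, and the latter pair made up 5.31% of public and 0.798% of all clonotypes.

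The HCDR3 of public clonotypes was short. Its mean length was 8.45 ± 2.54 residues (SD over 2390 clonotypes), against 11.7 ± 2.64 over all spleen clonotypes, and 42.1% of public clonotypes had 7 residues or fewer, against 6.33% of all. The other clonotypes held by 6 or more spleens were nearly as short, with 8.90 residues on average and 34.4% at 7 or fewer. Within single spleens the mean ranged from 8.27 to 8.90 residues for public and from 11.1 to 11.8 for other clonotypes, so the ranges did not overlap. Untemplated junction bases, those that no aligned V, D or J piece covered, averaged 3.81 ± 0.477 per public sequence and 6.87 ± 0.117 per other sequence (SD over 24 spleens), and were fewer in 24 of 24. The share of sequences with no such base was 13.2% ± 3.66 for public and 2.41% ± 0.409 for other clonotypes. IgBLAST assigned no D segment to 44.6% of public sequences and to 12.4% of the others, and bases of an unassigned D count as untemplated here. Pooled over spleens, public sequences averaged 3.73 junction bases and those of the other clonotypes held by 6 or more spleens 3.87, with no D segment in 47.7% and no junction base in 8.91% of the latter against 13.5% of public sequences.

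Junction bases were also fewer in public sequences at every HCDR3 length they had, from 4 to 17 residues. The difference was smallest at 9 residues, with 5.17 against 5.36. At 8 residues the public sequences averaged 4.31 junction bases and the others 4.99, at 10 residues 3.91 and 5.75, and at 13 residues 1.79 and 7.46. These means are over sequences, so a clonotype with many sequences weighs more. At 13 residues IGHV1-26/IGHJ1/ARDYYGSSWYFDV gave 3387 of the 6975 public sequences, with 1.59 junction bases on average. At 17 residues there was 1 public clonotype, with 11 sequences. The share of sequences with no junction base did not follow this at every length. It was lower in public sequences at 5 residues, with 5.00% against 8.15%, near level at 4, with 15.6% against 15.1%, and higher at 14, with 33.8% against 0.565%. Public clonotypes were 0.872% of all clonotypes with 5 residues and 0.0178% of those with 14.

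Public clonotypes were written in many nucleotide forms. They had 8.38 distinct HCDR3 nucleotide sequences on average (median 7, highest 79), and 4 of 2390 had a single form. All spleen clonotypes averaged 1.09 forms, the other clonotypes held by 6 or more spleens 5.87, and 2963967 of them were held by 1 spleen. Per holding spleen the public clonotypes averaged 0.857 forms, the other clonotypes held by 6 or more spleens 0.847, and all spleen clonotypes 1.003. The public value was thus the lower one against all spleen clonotypes. Among the 115671 pairs of spleens that held a public clonotype in common, 31413 (27.2%) shared at least 1 HCDR3 nucleotide form. All pairs of holders shared a form for 40 public clonotypes, and no pair did for 95. An identical full sequence in 2 spleens, which the filter lets pass, was present for 2009 public clonotypes (84.1%), and 14.1% of public sequence entries were of that kind against 2.42% of the others. Whether such sequences arose independently or passed between libraries was not tested.

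The 7 clonotypes held by all 24 spleens used IGHV7-1 in 2 cases and IGHV8-5, IGHV2-9, IGHV2-6-1, IGHV6-6 and IGHV1-26 in 1 each. A further 9 were in 23 spleens, and the 3 of them with the highest mean share, of IGHV9-3 and IGHV7-1, are described with these 7. Every pair of holders shared a form in 4 of the 10. All shares of clonotypes given here are shares of the counts left after the removal of shared sequences, which had taken 55.5% to 96.0% of the counts of each of these 10. Of IGHV7-1/IGHJ1/ARDNWDWYFDV, 1245 counts were left and 29712 removed, and of IGHV8-5/IGHJ3/AQMRGFAY 2239 and 20367. Their values by group therefore describe a minority of their deposited counts.

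IGHV7-1/IGHJ1/ARDYYGSSYWYFDV, of the V gene known for phosphorylcholine antibodies, made up 0.00185% to 0.0275% of counts in NOD-FMT spleens (median 0.0056%) and 0.000533% to 0.0102% in PBS-T spleens (median 0.00781%). In the 5 BCR control spleens it was at 0.00876%, 0.0192%, 0.0127%, 0.0415% and 0.0153%. The 3 groups overlapped, and the highest value was in BCR control mouse 4. The removal had taken 7475 of its 8318 counts. All 276 pairs of spleens shared its leading form, and its sequences averaged 0.122 junction bases.

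IGHV7-1/IGHJ1/ARDNWDWYFDV ranged from 0.00255% to 0.173% in NOD-FMT spleens (median 0.00642%) and from 0.0011% to 0.095% in PBS-T spleens (median 0.00427%). In the BCR control spleens it was at 0.00305%, 0.00255%, 0.000254%, 0.0154% and 0.0106%. The groups overlapped, with NOD-FMT mouse 6 and PBS-T mouse 3 far above the rest. Without NOD-FMT mouse 6 the highest NOD-FMT value was 0.0146%. IgM made up 99.4% of its remaining counts.

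IGHV2-9/IGHJ4/AKRGSSYAMDY was held by all 24 spleens through 60 nucleotide forms, 37 of them in 1 spleen each, and 40.6% of spleen pairs shared one. Its share ranged from 0.000485% to 0.0244% in NOD-FMT spleens (median 0.00626%) and from 0.00249% to 0.0251% in PBS-T spleens (median 0.00696%). The BCR control spleens had 0.00343%, 0.00638%, 0.00152%, 0.0583% and 0.00112%, and the groups overlapped. IGHV6-6/IGHJ3/TTGFAY, also in every spleen, had 24 forms and ranged from 0.000254% to 0.00792% over the 24 spleens.

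IGHV9-3/IGHJ1/ARDSNWYFDV had 3430 counts left of 7716, a mean of 0.036% of counts, with none left in the spleen of PBS-T mouse 8. It ranged from 0.0153% to 0.12% in NOD-FMT spleens (median 0.0501%) and from 0 to 0.0556% in PBS-T spleens (median 0.032%). The BCR control spleens had 0.0135%, 0.0268%, 0.00635%, 0.0206% and 0.00857%, which lay within the PBS-T range and overlapped the NOD-FMT range at its lower end. IGHV8-5/IGHJ3/AQMRGFAY (mean 0.0185%) and IGHV2-6-1/IGHJ1/ARHYGSSYWYFDV (mean 0.00412%) had no unmutated sequence in any spleen. The same held almost throughout these V genes, where 0.0221% of all IGHV8-5 and 0.0313% of all IGHV2-6-1 spleen sequences matched the germline gene. IGHV8-5/IGHJ3/AQMRGFAY differed from the other clonotypes of these 10 in its joint and isotype. Its sequences averaged 14.4 junction bases, where the others had at most 3.71. IgM made up 19.4% of its remaining counts and IgA 0.849%, where the others had 85.88% IgM or more. The remaining clonotypes were IGHV1-26/IGHJ3/ARGAY in 24 spleens and IGHV7-1/IGHJ3/ARDEWFAY and IGHV7-1/IGHJ1/ARDAWDWYFDV in 23 each, with means of 0.00154%, 0.00752% and 0.00439%.

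The V genes known from B-1 and natural antibodies were few among public clonotypes but held by many mice. IGHV11-2 gave 11 public clonotypes (0.46% against 0.0575% of all), IGHV12-3 gave 8 (0.335% against 0.0493%) and IGHV7-1 gave 22 (0.921% against 0.294%). In the other clonotypes held by 6 or more spleens the shares were 0.116% for IGHV11-2, 0.348% for IGHV12-3 and 0.464% for IGHV7-1, so that of IGHV12-3 was as high as among public clonotypes. These 41 clonotypes were held by a median of 13 spleens. IgM made up 96.5% of their counts. The leading IGHV11-2 clonotype, IGHV11-2/IGHJ1/MRYSNYWYFDV, ranged from 0.00106% to 0.00678% in NOD-FMT spleens (median 0.00309%) and from 0.000719% to 0.0121% in PBS-T spleens (median 0.00278%). The BCR control spleens had 0.000761%, 0, 0.00203%, 0.0087% and 0.0041%, so the groups overlapped. These values rest on 356 counts, with 10668 removed. IGHV12-3/IGHJ1/AGDYDGYWYFDV was held by 17 spleens at up to 0.00773%, on 235 counts left with 2263 removed.

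A small number of public clonotypes carried most of the remaining counts. Pooled over the 24 spleens, the top 10 held 37.1% of all public counts and the top 100 held 65.7%. In 41 public clonotypes (1.72%) the share reached 0.1% of the counts of a spleen at least once, and in 4 it reached 1%. The mean share of a public clonotype in the spleens that held it was higher than that of the other clonotypes in 23 of 24 spleens. The ratio between the averages was 3.45. Of the 3152401 other clonotypes, however, 2963967 were held by 1 spleen. This mean share was not computed for the 5167 widely held clonotypes that missed the rule. Whether the higher share belongs to public clonotypes or to widely held ones in general was therefore not tested.

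IGHV1-76/IGHJ2/ARRGDGYYFDY stood out by its forms, its isotype and its distribution. The removal had taken 3362 of its 29671 counts. It was held by 9 NOD-FMT, 7 PBS-T and 3 BCR control spleens. Its share ran from 0 to 1.11% in NOD-FMT spleens (median 0.122%) and from 0 to 0.637% in PBS-T spleens (median 0.0747%). The BCR control spleens had 0, 0.00128%, 0.00355%, 0.00377% and 0. It was above the BCR control range in 8 of 10 NOD-FMT and 7 of 9 PBS-T spleens, while mice 7 and 9 of each of these groups lay within that range, so the groups overlapped. The count test over all 7557 clonotypes held by 6 or more spleens gave a log2 difference of 7.64 ± 2.88 (SE) between NOD-FMT and BCR control (edgeR quasi-likelihood test, unadjusted p = 0.00809, adjusted p = 0.419). Between PBS-T and BCR control it was 6.32 ± 2.72 (edgeR, unadjusted p = 0.0199, adjusted p = 0.591), so neither passed 0.05 after adjustment. IgA made up 69.2% of its counts. Of its 79 nucleotide forms 62 occurred in 1 spleen, and 18.1% of pairs of holders shared a form.

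The other clonotypes with a high mean share were large in a few spleens, and the removal had taken 0.382% to 41.5% of their counts. IGHV1-26/IGHJ1/ARDYYGSSWYFDV had a mean of 0.26% and reached 2.15% in PBS-T mouse 8, 2.13% in PBS-T mouse 9 and 1.13% in NOD-FMT mouse 9, while 9 spleens lacked it. All of its 15 holders shared the leading form, and it had 62 forms. IGHV1-80/IGHJ3/ARGAY reached 2.19% in PBS-T mouse 2 and 1.00% in BCR control mouse 5, with a median of 0.00495% in NOD-FMT spleens and 0 in PBS-T spleens. IGHV1-80/IGHJ3/ARGPY, held by 7 spleens, had 91.9% of its counts in PBS-T mouse 8. IGHV1-9/IGHJ2/ARGGNYFDY reached 0.82% in NOD-FMT mouse 6, 0.643% in PBS-T mouse 1 and 0.335% in PBS-T mouse 2. IgA made up 83.3% of the counts of IGHV1-9/IGHJ2/ARGGNYFDY, and IgM 99.6% of those of IGHV1-26/IGHJ1/ARDYYGSSWYFDV.

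The 5 clonotypes with most nucleotide forms were IGHV1-76/IGHJ2/ARRGDGYYFDY with 79, IGHV1-26/IGHJ1/ARDYYGSSWYFDV with 62, IGHV2-9/IGHJ4/AKRGSSYAMDY with 60, IGHV1-22/IGHJ2/ARRLDY with 44 and IGHV1-72/IGHJ2/ARSLDY with 38. The last pair were short, with means of 0.00543% and 0.00193% of counts, and were held by 22 and 23 spleens. Of their pairs of holders 41.6% and 31.2% shared a form.

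**Figure D3:**
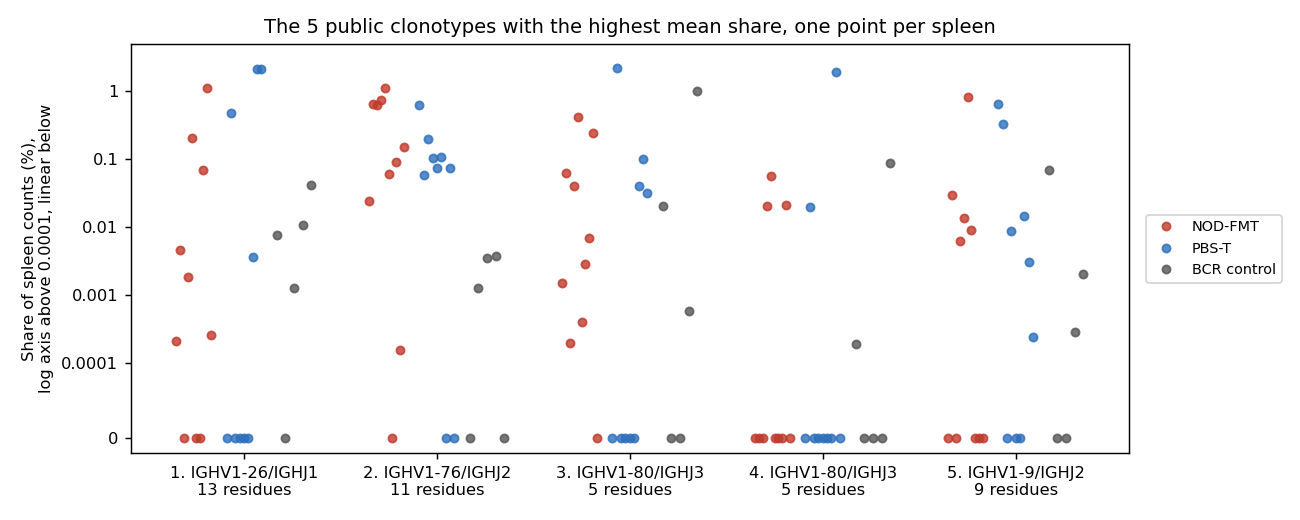
Share of spleen counts of the 5 public clonotypes with the highest mean share, one point per spleen and ordered from left to right by that mean, on an axis that is logarithmic above 0.0001% and linear below. In the second column, IGHV1-76/IGHJ2, the BCR control spleens lie at or below 0.00377% while the NOD-FMT spleens reach 1.11%.

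By isotype, IgM made up 76.5% of public counts and 68.7% of all spleen counts, and IgD 0.90% and 6.31%. IgA made up 15.6% and 11.3%, IgG2b 3.14% and 5.96%, IgG2c 1.07% and 4.16%, IgG3 2.44% and 2.40%, IgG1 0.293% and 1.06%, and IgE 0.00304% and 0.0131%. The other clonotypes held by 6 or more spleens had less IgM than either, at 54.0%, and more IgA (19.2%), IgG2b (10.8%) and IgG3 (12.4%), with 1.23% IgD. IGHV1-76/IGHJ2/ARRGDGYYFDY and IGHV1-9/IGHJ2/ARGGNYFDY held 49.8% of the public IgA counts, and without both the public IgA share was 8.79%, below that of all spleen counts. Within spleens the direction of these pooled values was not uniform. The IgA share of public clonotypes was higher than that of the others in 15 of 24 spleens, and the class-switched share was higher in 12 and lower in 12. Among public clonotypes with IGHJ2, IgA made up 32.3% of counts, against 4.96% with IGHJ1, 3.39% with IGHJ3 and 5.49% with IGHJ4. Without the same pair of clonotypes the IGHJ2 share was 17.8%.

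The unmutated share, the percent of counts without a mismatch to the germline V gene, depended on the removal of shared sequences. After removal it was 38.9% ± 13.2 (SD over 24 spleens) in public and 66.1% ± 8.11 in other clonotypes, and lower in 24 of 24 spleens. Pooled over spleens it was 35.4% in public clonotypes, 41.4% in the other clonotypes held by 6 or more spleens, and 68.8% in the 320 public clonotypes held by 2 mice of each group, so a low share was not general among public clonotypes. The removal had taken 426317 counts, or 59.0% of the counts of public clonotypes, but 6.59% of those of the others, and 90.7% of the removed public counts were unmutated. With the removed sequences put back into both sets, an alternative chosen after seeing the data, the public share was 68.8% ± 11.1 and that of the other clonotypes 68.0% ± 9.29, and the public share was higher in 14 spleens and lower in 10. The unmutated share of public clonotypes therefore cannot be read apart from this removal. At least 1 unmutated sequence remained in 2329 public clonotypes (97.4%), in 96.3% of the other clonotypes held by 6 or more spleens and in 82.8% of all.

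Many of the remaining public sequences lay close to a removed one. Of 77511 distinct public sequences, 25093 (32.4%) differed by 1 base from a removed sequence of the same clonotype, against 0.987% of the other sequences. Only clonotypes that had lost a sequence could enter these shares, and these were 1552 public clonotypes (64.9%) and 15052 of the 3152401 others. The shares therefore do not show whether public sequences lie closer to removed ones where both sets had lost sequences. The sequences 1 base from a removed one were next left out. With those sequences removed as well, 1416 clonotypes (59.2%) still met the rule, with a mean HCDR3 length of 8.58 residues, 44.4% with IGHJ2 and 11.2% with IGHV6-3. Whether a base difference was a somatic mutation or an error of amplification or sequencing was not tested.

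No difference between the groups in the share or composition of public clonotypes passed its test. The rule had chosen these clonotypes by their presence in the same spleens, in at least 2 mice of every group. Clonotypes restricted to a single group were thereby left out in advance. These tests and those of composition therefore cannot decide whether the transferred microbiota changed which clonotypes mice share. They compare only the counts of public clonotypes. Their summed share of counts was 2.71% ± 0.76 (SD, n = 10) in NOD-FMT spleens, with values from 1.12% to 3.48% and a median of 2.99%, and 3.33% ± 1.52 (SD, n = 9) in PBS-T spleens, with values from 1.42% to 5.74% and a median of 3.06%. The BCR control spleens had 2.51%, 3.35%, 2.30%, 2.61% and 2.92%. The ranges overlapped throughout, with NOD-FMT mouse 7 lowest and PBS-T mice 2 and 8 highest. The difference of -0.616 percentage points between NOD-FMT and PBS-T did not exceed the SD within each group (exact permutation test, two-sided, p = 0.276, adjusted p = 0.824 over 12 tests). Its direction depended on the removal, with 0.344 points when no sequence was removed and 0.0627 when shared sequences were kept in the mouse with the highest count.

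The composition of these counts overlapped between the groups as well. The unmutated share was 39.97% ± 12.7 (SD) in NOD-FMT and 36.0% ± 16.2 in PBS-T spleens, a difference of 3.99 points (exact permutation p = 0.549, adjusted p = 0.824). The class-switched share was 24.8% ± 15.1 and 20.1% ± 13.05, a difference of 4.70 points (exact permutation p = 0.482, adjusted p = 0.824). The IgA share was 18.3% ± 14.8 and 12.9% ± 10.9, a difference of 5.40 points (exact permutation p = 0.389, adjusted p = 0.824). These differences shrank under some settings and grew under others. They fell to 0.0557 points (unmutated, sequences of 2 or more mice removed), 0.171 (class-switched, at least 2 counts per clonotype and mouse) and 0.181 (IgA, no sequence removed). The unmutated difference rose to 7.74 with at least 2 counts. With sequences of 2 or more mice removed, the class-switched difference was 6.19 and the IgA difference 6.86. For clonotypes defined by HCDR3 nucleotides the class-switched and IgA differences changed sign. IgA ranged from 2.50% to 50.3% among NOD-FMT spleens and from 3.01% to 39.9% among PBS-T spleens. Against the BCR control group, whose shares were 41.9% ± 8.83 unmutated, 25.8% ± 7.54 class-switched and 20.3% ± 11.6 IgA (n = 5), no difference passed 0.05, and the lowest unadjusted value was for IgA in PBS-T (difference -7.40 points, exact permutation p = 0.254, adjusted p = 0.824).

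**Figure D4:**
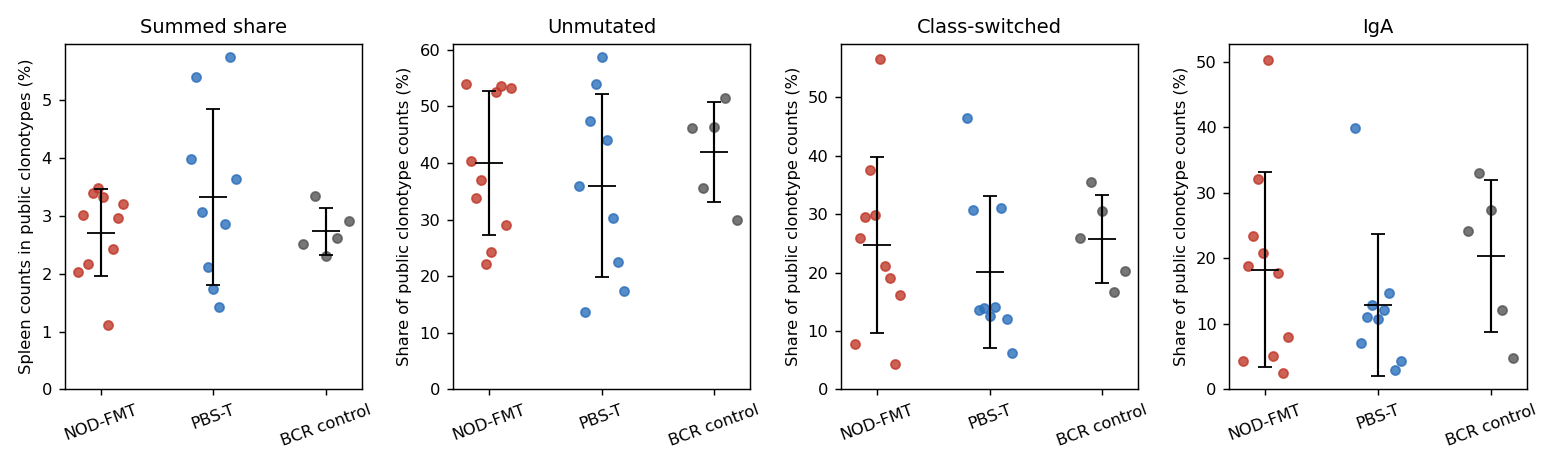
One point per spleen, with bars for the group mean and SD, for the summed share of spleen counts in public clonotypes and for the unmutated, class-switched and IgA shares of those counts, in percent. The groups overlap in every panel, and PBS-T spleens reach 5.74% in the first.

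Single public clonotypes were tested for a changed count in a fit over the 7557 clonotypes held by 6 or more spleens. None of the 2390 public clonotypes passed an adjusted p of 0.05 between NOD-FMT and PBS-T (edgeR quasi-likelihood test), where 4 of all 7557 did (0.0529%). At an unadjusted p under 0.05 there were 131 public and 740 of all clonotypes. DESeq2, whose filter left 705 of the 7557 clonotypes and 399 of the public ones with an adjusted p, called 69 of all (9.79% of the 705) and 10 public clonotypes, 8 of these higher in NOD-FMT. The older quasi-likelihood fit of edgeR called 8 public and 156 of all clonotypes (2.06%), a fit with no sequence removed 12 and 63 (0.454%), and a fit of the 627 clonotypes held by 12 or more spleens 2 and 2 (0.319%). The rule demands holders in every group, so nothing about public clonotypes as a class is read from this count. Public clonotypes had a median log2 difference of -0.19 and all fitted clonotypes one of 0.18. Between NOD-FMT and BCR control edgeR called 0 public and 1 of all clonotypes (0.0132%), and between PBS-T and BCR control 0 of all, with 106 public and 590 of all clonotypes at an unadjusted p under 0.05 in the former contrast and 68 and 548 in the latter. DESeq2 called 4 public and 34 of all clonotypes in the former (2.03% of 1674 with an adjusted p) and 7 and 33 in the latter (7.47% of 442). In simulated counts for the 7557 clonotypes and the contrast of NOD-FMT with PBS-T, changes of 16-fold were not found in any of 600 clonotypes, and 51.5% of those of 256-fold were, so changes of the former size were not detectable at this depth and spread. Increases and decreases in NOD-FMT had been planted in equal numbers. Of the 309 changes of 256-fold that were found, 274 were increases, so most decreases of that size were missed.

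The LG of a mouse held its public spleen clonotypes more often than its other spleen clonotypes. The gland libraries took no part in the rule. On average 1.75% ± 1.09 (SD, n = 24) of the public clonotypes that a spleen held were also in its LG, with values from 0.621% to 5.19%, against 0.286% ± 0.142 of the others, with values from 0.0377% to 0.574%. The share was higher for public clonotypes in 24 of 24 mice, by 1.46 percentage points (sign-flip permutation test, two-sided, p = 1e-05, the smallest that 100000 resamples can give). Public clonotypes had been chosen for recurring across mice, whereas 2963967 of the 3152401 others were held by 1 spleen. No such share is given for the 5167 other clonotypes held by 6 or more spleens. Whether the difference belongs to public clonotypes or to widely held ones in general was therefore not tested. Among the 11 mice with LG libraries marked as merged the difference was 1.41 points, and among the other 13 it was 1.51. The size of the difference depended on the processing. It was 0.691 points with no sequence removed, 2.41 with at least 2 counts per clonotype and mouse, 3.58 for clonotypes defined by HCDR3 nucleotides and 5.22 with spleens thinned to 71859 counts (sign-flip permutation p = 1e-05 in each). The LG of PBS-T mouse 5 stood apart with 17213 clonotypes, where the other glands had 560 to 2504, and the difference without this mouse was 1.35 points. Restricted to clonotypes with 1 count in the spleen, the shares were 0.676% ± 0.879 and 0.0597% ± 0.0457, higher for public clonotypes in 19 mice and lower in 5 (sign-flip permutation p = 1e-05). Of the public clonotypes with 1 count left in a spleen, however, 34.5% had lost further sequences there to the removal, against 0.410% of the others. Without these cases, an alternative chosen after seeing the data, the shares were 0.458% ± 0.814 and 0.0582% ± 0.0453, and the public share was higher in 13 mice and lower in 11 (sign-flip permutation p = 0.00032), so the direction was not uniform across mice.

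Public clonotypes were also found in the LG of other mice. A public clonotype held by a spleen was in the LG of a different mouse in 1.167% ± 0.43 of cases, and its presence in the own LG was higher by 0.582 points, in 19 of 24 mice (sign-flip permutation p = 3e-05). For the other clonotypes the share in foreign glands was 0.0172% ± 0.00858, and the own LG was higher in 24 of 24 mice. When a public clonotype was in a spleen and in the LG of the same mouse, 73.8% of the 363 cases had an HCDR3 nucleotide form in common and 28.4% an identical sequence. Between different mice these shares were 44.0% and 2.69% of 5915 cases. Sequences present in 3 or more mice of a tissue had been removed, which limits in advance what different mice can share. The gap between own and different mice therefore cannot be read apart from this removal.

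**Figure D5:**
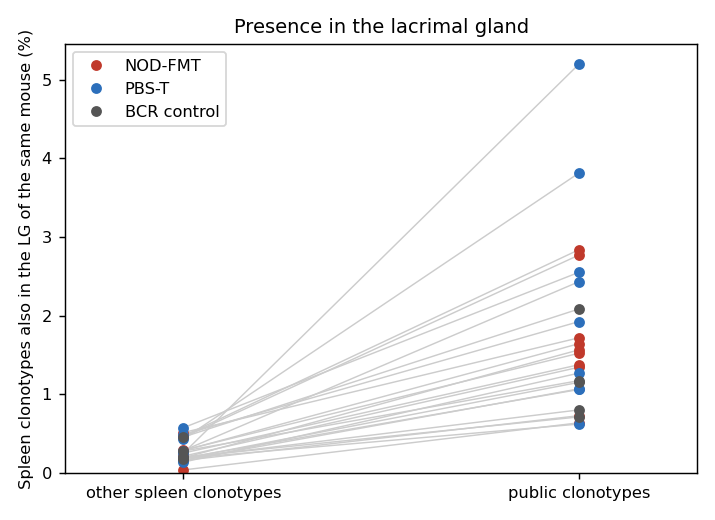
Percent of the public and of the other clonotypes of each spleen that were also in the LG of the same mouse, one line per mouse and points coloured by group. All 24 lines rise, and PBS-T and NOD-FMT mice are mixed.

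In all, 270 public clonotypes (11.3%) were in at least 1 LG library, against 0.327% of all spleen clonotypes and 7.24% of the other clonotypes held by 6 or more spleens. Of these, 171 were in 1 LG and 12 in 5 or more. Public clonotypes in the LG were held by 12.2 spleens on average and the rest by 9.44. IgA made up 91.1% of their LG counts, close to the 89.3% of all LG counts, and 31.6% were unmutated against 66.0% of all LG counts. IGHV1-9/IGHJ2/ARGGNYFDY alone held 24758 of these 71190 counts, with 0.00808% unmutated, and without it the unmutated share was 48.4%. Shared sequences had been removed from the LG tables too, and the unmutated share with them put back was not computed for the LG. Public clonotypes made up between 0.0926% and 26.7% of the counts of an LG, with PBS-T mouse 2 highest and PBS-T mouse 1 next at 15.9%.

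The clonotypes in most glands were mainly IgA there. IGHV7-1/IGHJ1/ARDYYGSSYWYFDV was in 11 LG libraries, at no more than 0.0927% of counts, and IgA made up 96.4% of its 84 LG counts although IgM made up 85.9% in the spleen. IGHV1-76/IGHJ2/ARRGDGYYFDY was in 10, of which 5 were from NOD-FMT mice, 5 from PBS-T mice and 0 from BCR control mice, with 99.8% IgA and a highest share of 4.48% in PBS-T mouse 1. IGHV3-6/IGHJ2/ARGGDYFFDY was in 10, of which 3 were from NOD-FMT mice, 4 from PBS-T mice and 3 from BCR control mice, with 100% IgA and at most 0.0665% of counts.

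In the spleen, IGHV3-6/IGHJ2/ARGGDYFFDY ranged from 0 to 0.0137% in NOD-FMT mice (median 0.000809%) and from 0 to 0.031% in PBS-T mice (median 0.00046%). The BCR control spleens had 0.063%, 0.0115%, 0, 0.0574% and 0.044%, so 3 of the 5 lay above both other groups and the groups overlapped. The log2 difference from BCR control was -3.50 ± 1.79 (SE) for NOD-FMT (edgeR, adjusted p = 0.642) and -2.66 ± 1.82 for PBS-T (edgeR, adjusted p = 0.741).

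In the LG, IGHV1-55/IGHJ3/ARGFAY was in 7 libraries and IGHV1-9/IGHJ2/ARGGNYFDY in 6, with 100% and 98.7% IgA, and the latter made up 22.4% of the LG counts of PBS-T mouse 2 and 7.83% in the next highest LG. For each of the 5 clonotypes in most LG libraries, every LG that held it belonged to a mouse whose spleen held it too. Over all public clonotypes this was so in 363 of 463 cases (78.4%).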

How the data were processed

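Heavy-chain transcripts of the spleen and LG of 24 mice were sequenced with CH1 primers that carry a molecular identifier. Per the labels and the study's methods, the authors merged and quality-filtered read pairs, clustered reads by identifier into consensus sequences without singletons, and annotated them with IgBLAST, keeping productive sequences. The deposited tables give, for each sequence, the counts of consensus sequences, their share of the library total as a fraction, and how many V bases mismatch the germline gene. Shares were computed anew here, after filtering. Which germline reference release was used is not given in the sources used here. The labels name the mm10 build. In 11 LG libraries the labels say that data were merged, without saying what was merged.

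Within each tissue, a nucleotide sequence present in at least 3 mice was removed from all of them. The study describes a filter in like words but gives a smaller share of removed reads, so the filtered tables here differ from the study's, and what it kept of such sequences is not given in the sources used here. The removal here took 27143 spleen sequences and 9.84% of spleen counts, and left 71859 to 2032338 counts per spleen. Clonotypes were then formed from V gene, J gene and HCDR3 amino acids. Junction bases were taken from the alignment coordinates. An unmutated sequence has no mismatch to its V gene. In 33 V genes under 5% of all sequences had none, and without these genes the unmutated share of public counts was 35.9%.

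Group means were compared by two-sided exact permutation over mice, with Benjamini-Hochberg adjustment over 12 tests, and LG presence by sign flips over mice with 100000 resamples, or exactly for up to 15 mice. Counts were fitted with edgeR 4.0.16 (quasi-likelihood, filtered totals as library sizes) for clonotypes held by 6 or more spleens. Its newer quasi-likelihood fit was used, which had p below 0.05 for 4.55% and 4.58% of unchanged simulated clonotypes. The SE printed with a log2 difference is approximate. It is the absolute difference divided by the square root of the F statistic of the test, and the fit itself does not report it. The older fit was an added alternative, for which no such rate is given here. DESeq2 1.42.0 was an alternative. Python 3.11.15, R 4.3.3 and SciPy 1.17.1 were used. The scripts were tested on simulated data: the rule equalled a direct count in 40 of 40 sets. The tests treat mice as independent. Cages and litters are not given, so a difference between groups could not be told apart from one between cages or litters.

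Named clonotypes were the 10 held by most spleens (ties by mean share), the 5 each with highest mean share, most nucleotide forms and most LG libraries, and the most widely held of IGHV11-2, IGHV12-3 and IGHV7-1. Named V genes had the 5 highest and 5 lowest ratios among genes with at least 1% in either set. The members and lists were chosen with earlier results of these data known. Intervals and floors cover counting error only. Alternatives concerned the sequence filter, clonotype definition, minimum count, thinning, normalization, tool, pairing and each mouse left out.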

Additional observations from a re-analysis of the deposited data

Results flagged for a closer look

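In groups of 4 to 10 mice, a value was picked out when its gap to the nearest other mouse was large against the range of its group (Dixon's criterion). For normally distributed values chance picks out about 1 in 20 groups. The rate for skewed shares with many zeros was not measured. Among 24 groups of values per spleen there were 4 such mice. NOD-FMT mouse 3 held 1728 public clonotypes, where the other NOD-FMT mice held 564 to 1035, and BCR control mouse 2 held 672, where the others held 1279 to 1405. These were the deepest and the shallowest spleen of their groups. IgA made up 39.9% of public counts in PBS-T mouse 1 and at most 14.8% in the other PBS-T mice. The mean HCDR3 length of public clonotypes was 8.74 residues in NOD-FMT mouse 6 and at most 8.49 in the other NOD-FMT mice.

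Among 63 groups of shares of the named clonotypes there were 30 such mice, all far above the rest of their group. These shares are skewed, and some of the clonotypes were named for a high mean share that a single spleen can carry. The number is therefore not read against the rate for normal values. For IGHV7-1/IGHJ1/ARDNWDWYFDV they were NOD-FMT mouse 6 at 0.173% and PBS-T mouse 3 at 0.095%. For IGHV7-1/IGHJ1/ARDYYGSSYWYFDV it was NOD-FMT mouse 6 at 0.0275%. For IGHV7-1/IGHJ1/ARDAWDWYFDV they were NOD-FMT mouse 3 at 0.0178% and PBS-T mouse 7 at 0.0262%. For IGHV7-1/IGHJ3/ARDEWFAY it was NOD-FMT mouse 10 at 0.0256%.

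Among the other widely held clonotypes, IGHV2-9/IGHJ4/AKRGSSYAMDY had BCR control mouse 4 at 0.0583%, IGHV2-6-1/IGHJ1/ARHYGSSYWYFDV had PBS-T mouse 6 at 0.0139%, and IGHV6-6/IGHJ3/TTGFAY had NOD-FMT mouse 3 at 0.00792%. IGHV1-26/IGHJ3/ARGAY had BCR control mouse 5 at 0.00484%, and IGHV9-3/IGHJ1/ARDSNWYFDV had NOD-FMT mouse 1 at 0.12%. IGHV11-2/IGHJ1/MRYSNYWYFDV had NOD-FMT mouse 8 at 0.00678% and PBS-T mouse 3 at 0.0121%, and IGHV12-3/IGHJ1/AGDYDGYWYFDV had NOD-FMT mouse 3 at 0.00773%.

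Among the clonotypes with a high mean share, IGHV1-26/IGHJ1/ARDYYGSSWYFDV had NOD-FMT mouse 9 at 1.13% and BCR control mouse 5 at 0.0415%, and IGHV1-76/IGHJ2/ARRGDGYYFDY had PBS-T mouse 1 at 0.637%. IGHV1-80/IGHJ3/ARGAY had PBS-T mouse 2 at 2.19% and BCR control mouse 5 at 1.00%. IGHV1-80/IGHJ3/ARGPY had NOD-FMT mouse 5 at 0.0561%, PBS-T mouse 8 at 1.92% and BCR control mouse 5 at 0.0875%. IGHV1-9/IGHJ2/ARGGNYFDY had NOD-FMT mouse 6 at 0.82% and BCR control mouse 1 at 0.0706%.

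Among the rest, IGHV1-22/IGHJ2/ARRLDY had NOD-FMT mouse 10 at 0.0577% and PBS-T mouse 6 at 0.0139%, and IGHV1-72/IGHJ2/ARSLDY had PBS-T mouse 1 at 0.00639%. IGHV3-6/IGHJ2/ARGGDYFFDY had NOD-FMT mouse 5 at 0.0137% and PBS-T mouse 4 at 0.031%, and IGHV1-55/IGHJ3/ARGFAY had PBS-T mouse 7 at 0.00965%.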

How the results depend on the processing

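The number of public clonotypes, 2390, depended on the processing. It was 5883 with no sequence removed, 1409 when sequences of 2 or more mice were removed, 257 for HCDR3 nucleotide clonotypes, 475 with at least 2 counts per clonotype and mouse, 270.3 on average when spleens were thinned to 71859 counts, and 1416 when sequences 1 base from a removed one were also left out, an alternative chosen after seeing the data. Leaving out 1 mouse gave 1717 to 2366, lowest without BCR control mouse 5. The length difference, -3.26 residues, was -2.96 with no sequence removed, -2.87 for nucleotide clonotypes, -2.21 with at least 2 counts and -2.62 after thinning, and -3.31 to -3.23 with 1 mouse left out. The difference in nucleotide forms, 7.29, was 5.09 with no sequence removed, 10.9 with at least 2 counts, and 7.01 to 7.57 with 1 mouse left out. The cause of these shifts was not tested.

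Between NOD-FMT and PBS-T, the difference in summed share turned to 0.344 points (permutation p = 0.788) with no sequence removed and to 0.0627 (permutation p = 0.937) when shared sequences were kept in the mouse with the highest count. For nucleotide clonotypes the class-switched difference turned to -3.94 (permutation p = 0.740) and the IgA difference to -2.43 (permutation p = 0.690). Over the other changes of filter, definition and minimum count, the unmutated difference, 3.99, was 0.0557 with sequences of 2 or more mice removed to 7.74 with at least 2 counts, the class-switched one, 4.70, was 0.171 with at least 2 counts to 6.95 with sequences 1 base from a removed one left out, and the IgA one, 5.40, was 0.181 with no sequence removed to 10.2 with the latter left out. With 1 mouse left out these differences ran from -0.918 to -0.152 (summed share), 0.890 to 6.90 (unmutated), 0.312 to 8.55 (class-switched) and 1.68 to 9.47 (IgA), none past 0.05, and the LG difference from 1.35 to 1.72. The LG difference, 1.46 points, was 0.691 with no sequence removed, 1.81 with sequences of 2 or more mice removed, 1.39 with shared sequences kept in the mouse with the highest count, 2.41 with at least 2 counts, 3.58 for nucleotide clonotypes and 5.22 after thinning (permutation p = 1e-05 in each). It was 0.616 for clonotypes with 1 count in the spleen and 0.400 for those with no sequence removed there as well, both chosen after seeing the data. The count test called 8 public and 156 of all 7557 clonotypes (2.06%) in the older quasi-likelihood fit (added after seeing the data), 10 and 69 in DESeq2 (9.79% of 705 with an adjusted p), 2 and 2 of the 627 clonotypes of 12 or more spleens (0.319%), 12 and 63 of 13891 with no sequence removed (0.454%), and 0 public ones with any 1 mouse left out.

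Groups share replicate numbers, and the 9 same-numbered pairs of NOD-FMT and PBS-T mice correlated at -0.0353 to 0.0355. No value for pairs with different numbers is given here, so this cannot decide whether equal numbers mark a shared cage or processing. The main tests treated the mice of different groups as unpaired. With the replicate number as a block the differences were -0.670, 2.51, 5.67 and 6.55 points in the same order (permutation p = 0.305, 0.762, 0.477 and 0.363), and 0 clonotypes were called.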
